A study of Solanum lycopersicum with 12 samples.

Results

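Tomato has a small set of genes that write cytosine methylation on DNA and a small set that take it off. The 10 genes described here are 6 DNA methyltransferases (MET1, CMT2, CMT3, CMT4, DRM5 and DRM7) and 4 DEMETER-like DNA demethylases (DML1, DML2, DML3 and DML4), and they were found by their locus numbers in a table of 34075 annotated genes. They were measured by RNA sequencing of leaves of the dwarf cultivar Micro Tom, in 12 libraries of 4 groups with 3 biological replicates each. The control plants (C) received neither treatment. The US plants were exposed in air, from 6 cm, to ultrasound of 30 kHz and 120 W for 5 min. The D plants were watered with 10 ml of a 20% solution of polyethylene glycol, an osmotic agent that mimics drought. The US + D plants received the ultrasound and, immediately afterwards, the polyethylene glycol. All plants were of the same cultivar, about 3 weeks old at treatment, and all leaves were taken 48 h later, i.e., 2 d after the treatment, so the data hold a single time point and a single way of imposing drought.

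In plants, cytosines are methylated in 3 sequence contexts, namely CG, CHG and CHH, where H is any base other than G. In Arabidopsis, MET1 copies CG methylation after DNA replication, CMT3 maintains CHG methylation in a loop with a histone mark, CMT2 methylates CHH sites in long heterochromatic transposons, and DRM enzymes are guided to new sites by small RNAs. Demethylases of the DEMETER and ROS1 family are glycosylases that cut out the methylated base, which is then replaced by base-excision repair. In tomato, DML2 is known for the loss of methylation during fruit ripening. RNA levels of these enzymes are reported here, and the methylation of the DNA was not measured in these libraries.

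The libraries held between 33640280 and 106829565 counted reads, and the deepest were C replicates 2 and 3 and US + D replicate 3. The 10 genes took between 0.0266% and 0.0453% of the counts of a library. The lowest count of any of them in any library was 54 (CMT3, US + D replicate 1) and the highest was 12649 (DML1, C replicate 2), so each gene was well above the level that 3 counts would give, which was 0.0275 to 0.0877 CPM (counts scaled to a common library size). All 10 were among the 22157 genes that passed the filter on low counts. The labelled tissue was not checked against leaf markers, because the locus numbers could not be tied to marker genes here.

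The positions of the genes are given on the SL4.0 genome with the ITAG4.0 gene models. MET1 (Solyc11g030600) lies on chromosome 11 from 21361536 to 21378146 on the minus strand, CMT2 (Solyc12g100330) on chromosome 12 from 66624534 to 66631364 on the plus strand, and CMT3 (Solyc01g006100) on chromosome 1 from 766314 to 774402 on the minus strand. CMT4 (Solyc08g005400) lies on chromosome 8 from 306203 to 318247 and DRM5 (Solyc02g062740) on chromosome 2 from 32508528 to 32522255, both on the plus strand. DRM7 (Solyc04g005250) lies on chromosome 4 from 203840 to 208271 on the minus strand and has the shortest span of the 10, 4432 bases against 16611 for MET1. Among the demethylases, DML1 (Solyc09g009080) lies on chromosome 9 from 2449491 to 2459105 on the plus strand. DML2 (Solyc10g083630, chromosome 10 from 62566507 to 62577468), DML3 (Solyc11g007580, chromosome 11 from 1849715 to 1859057) and DML4 (Solyc03g123440, chromosome 3 from 64744832 to 64755056) lie on the minus strand. DML2 was the only one whose span overlapped another gene model, Solyc10g083620 on the opposite strand, which held 4 counts over all 12 libraries.

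The names were compared with the RefSeq gene table of the assembly SLM_r2.1, which holds all 10 symbols. Each symbol was on the same chromosome as the locus, with a gene span that differed by between -5.96% (DML4) and 2.22% (MET1). The tables share no identifiers, so this match is by chromosome and length. The annotation used by the study calls Solyc04g005250 a cytosine-5 DNA methyltransferase 1, whereas RefSeq has DRM7 on chromosome 4 and MET1 on chromosome 11. The gene is called DRM7 here, and its identity as a DRM enzyme rests on that match.

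None of the 10 genes passed the test in any comparison. A gene was called differentially expressed when its Benjamini-Hochberg adjusted p was under 0.05 in edgeR's quasi-likelihood test, if it was also above 0.58 or below -0.58 on the log2 scale. For D compared to C, 0 of 10 members were called and the background over all 22157 genes tested was 0.00451%. The count was also 0 of 10 for US compared to C (background 0%), US + D compared to C (0.00451%), D compared to US (0%), US + D compared to D (0.122%), US + D compared to US (0%) and the interaction of drought and ultrasound (0%). With this test few genes of any kind were called, while DESeq2 and limma called more, as given below.

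At an unadjusted p under 0.05 in edgeR, 3 members were counted for D compared to C (background 11.1%), namely DRM7 higher and CMT2 and MET1 lower. The count was 2 for D compared to US (13%) and 2 for US + D compared to D (12.6%), in both cases DRM7 and CMT2. It was 0 of 10 for US compared to C (3.84%), US + D compared to C (4.88%) and US + D compared to US (3.37%). All members counted were methyltransferases and none was a demethylase, and every comparison with a count involved the D group. The background was also higher in the comparisons with D, and with only 4 demethylases a count of 0 does not set the classes apart. The 3 comparisons with D share its libraries and are not independent of each other.

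**Figure D1:**
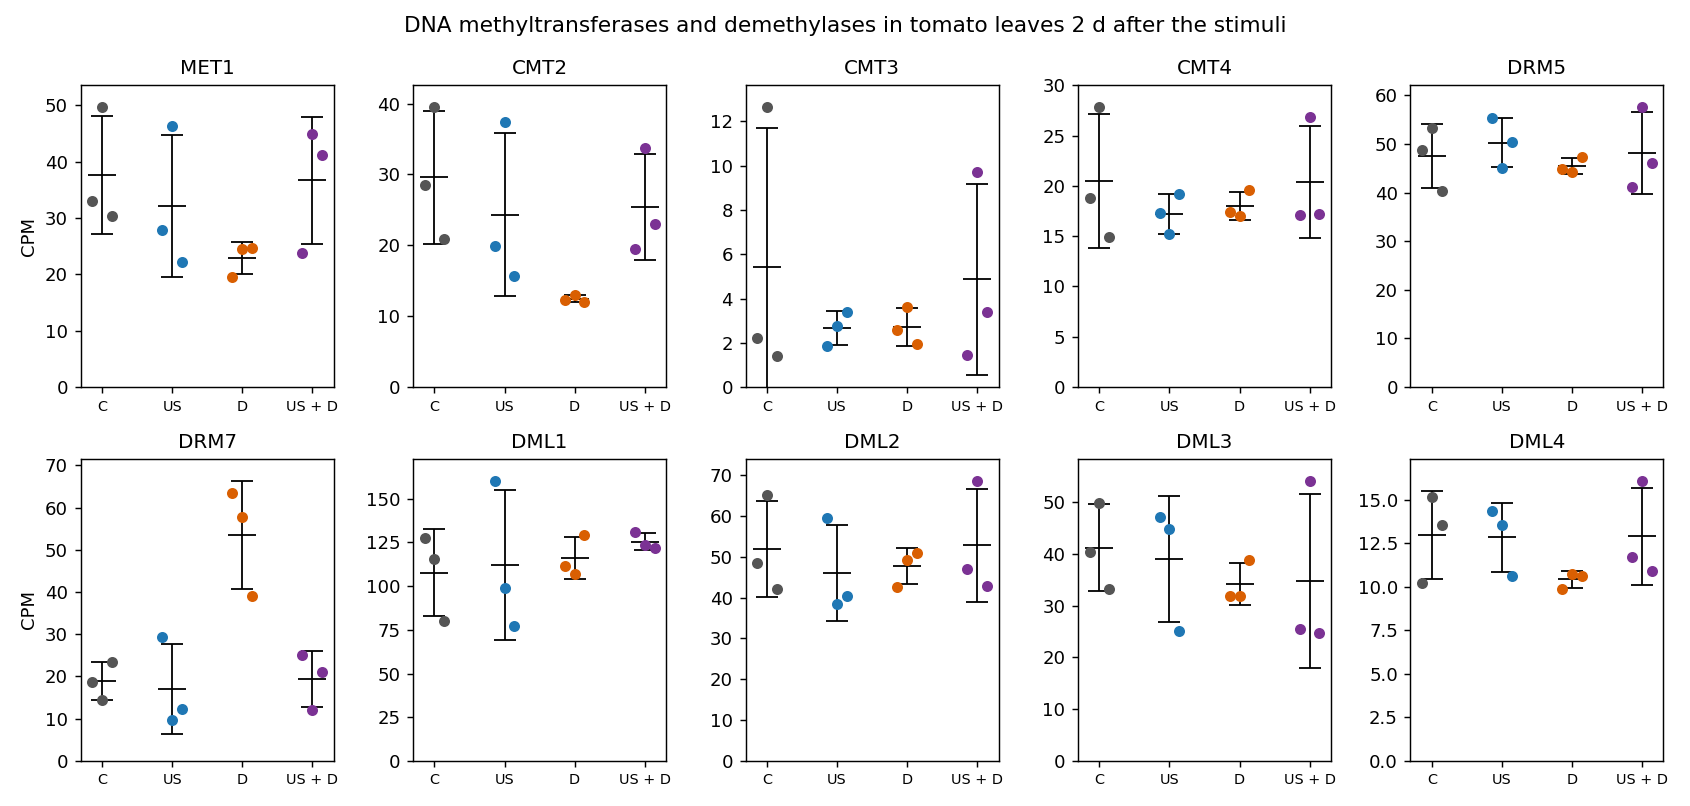
Expression of the 10 genes in each library in CPM, 1 panel per gene, each panel with its own vertical axis starting at 0. Points are the 3 libraries of a group, horizontal lines the group means and bars 1 SD. DRM7 reaches 39.1 to 63.6 CPM in the D libraries and at most 29.3 elsewhere, whereas CMT2 lies at 12 to 13 CPM in D and at 15.6 or above elsewhere. The lower end of the bar of CMT3 in C lies below 0 and is not drawn.

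DRM7, which the symbol places with the enzymes that set methylation de novo, differed most in level between D and the other groups. It was measured at 18.8, 14.4 and 23.5 CPM in C and at 29.3, 9.66 and 12.3 CPM in US. The D libraries had 63.6, 57.8 and 39.1 CPM and the US + D libraries 25.1, 12 and 21.1 CPM. The 3 D libraries were thus the highest of the 12, and the ranges of the other groups overlapped each other. The group means were 18.9 ± 4.58 CPM in C, 17.1 ± 10.7 in US, 53.5 ± 12.8 under D and 19.4 ± 6.71 under US + D (SD, n = 3).

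Compared to C, DRM7 in D was 2.83-fold higher, a log2 fold change of 1.5 (SE 0.42, 95% interval 0.57 to 2.43) with an unadjusted p of 0.00462 and an adjusted p of 0.286 in edgeR. Compared to US, the log2 fold change was 1.64 (SE 0.42, 95% interval 0.71 to 2.58, edgeR adjusted p = 0.172), and all 3 D libraries were above all 3 US libraries. In US + D it was lower than in D in every library, with a log2 fold change of -1.46 (SE 0.42, 95% interval -2.39 to -0.53, edgeR adjusted p = 0.202). These intervals leave out 0 while the adjusted p-values over all genes miss the threshold.

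The call of DRM7 changed with the tool. DESeq2, the tool used by the study, called 2 of 10 members for D compared to C (background 1.95%), DRM7 with a log2 fold change of 1.51 and an adjusted p of 0.0321 and CMT2 with -1.24 and 0.04. For D compared to US it called 1 of 10 (background 3.19%), DRM7 with 1.66 and an adjusted p of 0.00937. For US + D compared to D it also called DRM7 alone (background 3.33%), with -1.46 and an adjusted p of 0.0288. It called 0 of 10 for US (background 0.384%) and US + D (0.65%) against C, and 0 of 10 for US + D against US (0.0632%). With 1 library left out, the DESeq2 call of DRM7 for D compared to C was kept in 7 of 12 fits. Some of the 12 fits left out a library of neither group compared, which hardly moves the fold change. When a C or D library was left out, the call was kept only without C replicate 3 (adjusted p = 0.0272) or D replicate 3 (0.0474). Leaving out C replicate 1 gave an adjusted p of 0.131, C replicate 2 one of 0.119, D replicate 1 one of 0.228, D replicate 2 one of 0.216 and the third US + D library one of 0.0557. Between D and US the DESeq2 call was kept in 8 of 12 fits and lost without US replicate 2 (adjusted p = 0.0942), US replicate 3 (0.0658), D replicate 1 (0.126) or D replicate 2 (0.0849). Among the fits without a D or US library, it was kept only without US replicate 1 (3.72e-07) or D replicate 3 (0.0151). For US + D compared to D the DESeq2 call was kept in 8 of 12 and lost without D replicate 1 (0.218), D replicate 2 (0.165) or the second (0.162) or the third (0.0852) US + D library. Among the fits without a D or US + D library, it was kept only without D replicate 3 (0.0385) or US + D replicate 1 (0.0231). The direction could not change in these fits, because all D libraries were above all other libraries, so it adds nothing to the calls.

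CMT2, the chromomethylase that acts on CHH sites of heterochromatin in Arabidopsis, was lowest in D, where DRM7 was highest. It was measured at 28.5, 39.5 and 20.9 CPM in C, at 20.0, 37.4 and 15.6 CPM in US, at 12.3, 13 and 12 CPM in D, and at 19.5, 33.7 and 23.0 CPM in US + D. The 3 D libraries were the lowest of the 12 and lay close together, 12.5 ± 0.489 CPM (SD, n = 3), against 29.6 ± 9.35 in C, 24.3 ± 11.5 in US and 25.4 ± 7.42 in US + D. The SD in each of the other groups was larger than the whole range in D.

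For D compared to C, CMT2 had a log2 fold change of -1.25 (SE 0.34, 95% interval -2.00 to -0.50) with an unadjusted p of 0.00391 and an edgeR adjusted p of 0.272. Against US it was -0.97 (SE 0.34, edgeR adjusted p = 0.282), and without US replicate 2, the highest US library, it was -0.50. For US + D compared to D the log2 fold change was 1.03 (SE 0.34, 95% interval 0.28 to 1.78, edgeR adjusted p = 0.255), and all 3 US + D libraries were above all 3 D libraries. The DESeq2 call for D compared to C was kept in 6 of 12 fits with 1 library left out. When a C or D library was left out, it was kept only without C replicate 3 (adjusted p = 0.0166). It was lost without C replicate 1 (adjusted p = 0.137), C replicate 2 (0.181), any D replicate (0.192, 0.183 and 0.164 for replicates 1, 2 and 3) or US + D replicate 3 (0.0671). limma with voom and quality weights called 1 of 10 members for D compared to C (background 1.01%), CMT2 with an adjusted p of 0.0499, while DRM7 had 0.058. It called 2 of 10 for US + D compared to D (background 8.95%), CMT2 (adjusted p = 0.026) and DRM7 (0.0135). It called 0 of 10 for D compared to US (background 0.614%), US (0.00451%) and US + D (0.158%) compared to C, US + D compared to US (0%) and the interaction (0.00451%).

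**Figure D2:**
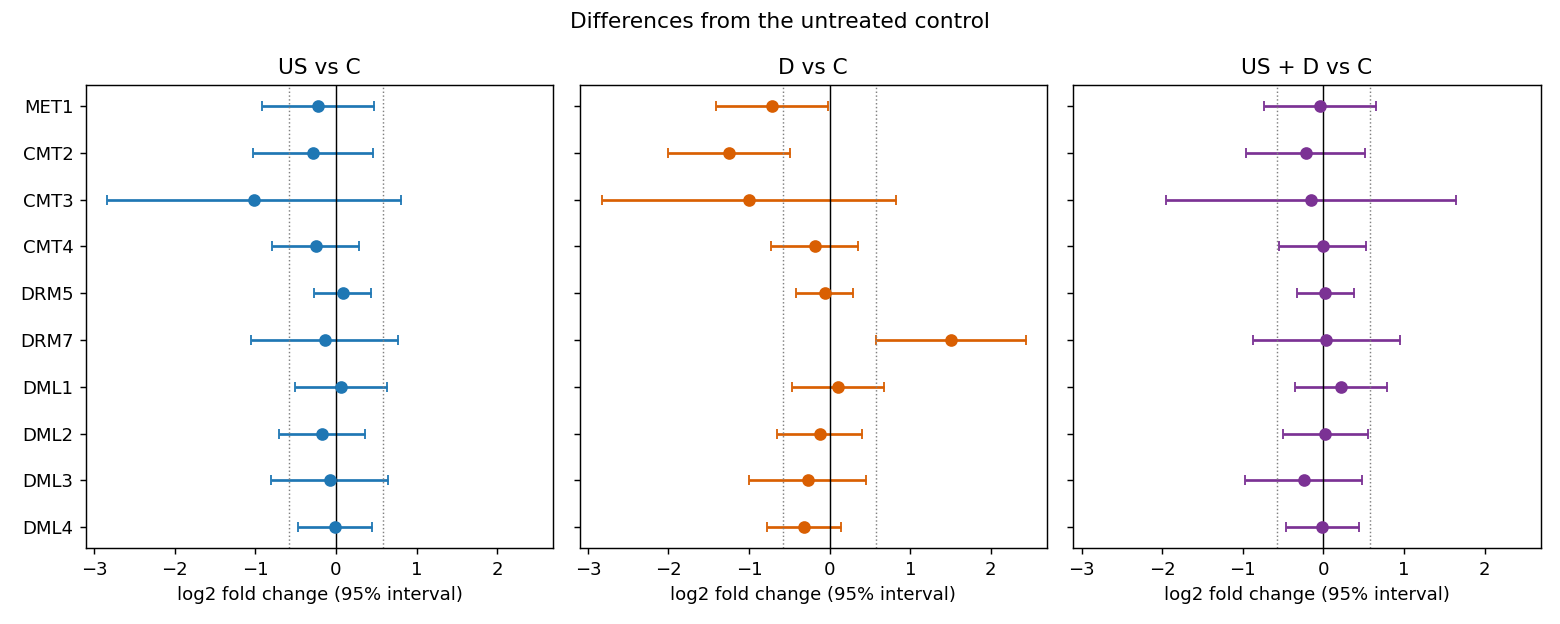
Log2 fold changes of the 10 genes compared to C from edgeR, 1 panel each for US, D and US + D, with bars for the 95% intervals, a solid line at 0 and dotted lines at -0.58 and 0.58. For D, DRM7 (1.5) and CMT2 (-1.25) lie on opposite sides of 0 with intervals that leave it out, as does that of MET1 (-0.72), and the intervals of all genes cross 0 for US and for US + D.

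MET1, which keeps CG methylation through cell division in Arabidopsis, was also lowest on average in D. It was measured at 33.0, 49.6 and 30.4 CPM in C, at 27.9, 46.4 and 22.2 CPM in US, at 19.6, 24.5 and 24.6 CPM in D, and at 23.9, 44.9 and 41.2 CPM in US + D. All D libraries were below all C libraries, while D overlapped with US and with US + D. Compared to C, MET1 in D had a log2 fold change of -0.72 (SE 0.32, 95% interval -1.42 to -0.02, edgeR unadjusted p = 0.0448, adjusted p = 0.44). Against US, the value of D was -0.49 (SE 0.32, edgeR adjusted p = 0.562), and for US + D compared to D it was 0.68 (SE 0.32, edgeR adjusted p = 0.413). Without US replicate 2 the difference between D and US was -0.11, and without C replicate 2 that between D and C was -0.47.

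CMT3, the CHG methyltransferase, was the lowest of the 10 genes and was uneven within C and US + D. It was measured at 2.21, 12.6 and 1.39 CPM in C, at 1.87, 2.78 and 3.39 CPM in US, at 2.58, 3.62 and 1.95 CPM in D, and at 1.46, 9.74 and 3.41 CPM in US + D. C replicate 2 and US + D replicate 2 stood above all other libraries, and the coefficient of variation was 115.8% in C and 88.8% in US + D, against 28.5% in US and 31.0% in D. The log2 fold change for D compared to C was -1.0 (SE 0.83, 95% interval -2.82 to 0.82, edgeR adjusted p = 0.686), and without C replicate 2 it was 0.59. For US compared to C it was -1.02 (SE 0.83), and 0.58 without that library, so the direction for CMT3 in both comparisons was set by C replicate 2. For US + D compared to D it was 0.84, and -0.15 without US + D replicate 2.

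The other 2 methyltransferases did not separate the groups. CMT4, a chromomethylase for which no role is given here, was measured at 18.8, 27.8 and 14.9 CPM in C, 17.3, 15.2 and 19.2 in US, 17.4, 17.0 and 19.6 in D, and 17.1, 26.8 and 17.2 in US + D. DRM5, a second DRM-type gene, was measured at 48.7, 53.3 and 40.3 CPM in C, 55.2, 45.1 and 50.5 in US, 44.9, 44.2 and 47.3 in D, and 41.1, 57.5 and 46.0 in US + D. The groups of both genes overlapped in every pairwise comparison. The pattern of DRM7 was thus not seen in DRM5, the other DRM gene among the members described here. Any DRM genes outside these members were not examined. No test of the difference between DRM5 and DRM7 was made.

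Among the demethylases, DML1 was the most abundant member in CPM, with 107.7 ± 24.8 CPM in C, 112 ± 43.0 in US, 115.9 ± 12 under D and 126 ± 4.95 under US + D (SD, n = 3). DML2 was at 51.9 ± 11.9, 46.0 ± 11.7, 47.7 ± 4.40 and 52.8 ± 13.8 CPM in the same order of groups, and DML3 at 41.1 ± 8.38, 39.0 ± 12.1, 34.1 ± 4.0 and 34.7 ± 16.7 CPM. These 3 genes overlapped between every pair of groups. DML4 was measured at 10.2, 15.2 and 13.6 CPM in C, 14.4, 13.6 and 10.6 in US, 9.88, 10.8 and 10.6 in D, and 11.7, 16.1 and 10.9 in US + D. Only its D and US + D libraries did not overlap. Its log2 fold change for US + D compared to D was 0.31 (SE 0.21, edgeR unadjusted p = 0.17, adjusted p = 0.605).

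The 4 demethylases had log2 fold changes between -0.32 and 0.11 for D compared to C. Over CMT4, DRM5 and the 4 demethylases, the 36 log2 fold changes of the 6 pairwise comparisons lay between -0.32 and 0.31, with a smallest unadjusted p of 0.156 in edgeR. Their 95% intervals in edgeR with all libraries lay within -1.0 to 0.79, so a change of more than 2-fold in either direction lies outside the intervals of that fit. Larger values were given by limma for DML3, -0.62 for US + D compared to C (unadjusted p = 0.0244, adjusted p = 0.32) and -0.58 compared to US (0.037 and 0.631). Without US + D replicate 2, edgeR gave -0.70 for DML3 in US + D compared to C. For DRM5 the intervals lay within -0.50 to 0.44.

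As a group, the 10 genes had a median log2 fold change of -0.23 for D compared to C, beside -0.05 over all genes tested. The median was 0.16 for US + D compared to D, beside 0.03 over all genes, and -0.16 for US compared to C, beside -0.02. For D compared to US it was -0.06 against -0.02, for US + D compared to C -0.01 against -0.03, and for US + D compared to US 0.17 against 0.00. Groups that did not overlap were found for 3 of 10 members for D compared to C (background 19.5%), 2 of 10 for D compared to US (23.2%) and 3 of 10 for US + D compared to D (22.9%). No member had such groups for US compared to C (6.26%), US + D compared to C (7.64%) or US + D compared to US (6.97%). The shares of members were thus close to the background in the comparisons with D.

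US alone left the 10 genes within log2 fold changes of -1.02 (CMT3) to 0.08 relative to C. US + D differed from C by between -0.25 and 0.22 and from US by between -0.17 and 0.86 (CMT3). The value of CMT3 between US + D and C, -0.16, was 1.43 without C replicate 2 and -1.12 without US + D replicate 2, and the 0.86 against US was -0.11 without the latter. DRM7 was at 19.4 ± 6.71 CPM in US + D and 18.9 ± 4.58 in C, and CMT2 at 25.4 ± 7.42 and 29.6 ± 9.35 CPM (SD, n = 3). A difference that misses the threshold does not show that the groups were equal.

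The interaction asks whether polyethylene glycol shifted a gene by a different amount in plants that had received ultrasound, i.e., the change from US to US + D minus the change from C to D. It was 1.31 for CMT2 on the log2 scale (SE 0.48, 95% interval 0.26 to 2.37, edgeR unadjusted p = 0.0193, adjusted p = 0.715). For DRM7 it was -1.32 (SE 0.59, 95% interval -2.62 to -0.03, edgeR unadjusted p = 0.0464, adjusted p = 0.776), and -0.68 without US replicate 1 (unadjusted p = 0.162). Those 2 of 10 members were below an unadjusted 0.05, beside 6.42% of all genes. MET1 had an interaction of 0.91 (SE 0.45, edgeR adjusted p = 0.781), and CMT3 one of 1.86 (SE 1.17, edgeR adjusted p = 0.782), which was 0.26 without C replicate 2. DESeq2 called no member for the interaction with all libraries (background 0.478%), and called CMT2 when US replicate 2 was left out (adjusted p = 0.0144).

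Levels can be compared between genes only per length, and here the length is the span of the gene with its introns, so the values below are in CPM per kb of gene span and understate genes with long introns. In C the order of the mean levels was DML1 (11.2), DML2 (4.74), DML3 (4.40), CMT2 (4.33), DRM7 (4.26), DRM5 (3.46), MET1 (2.27), CMT4 (1.70), DML4 (1.27) and CMT3 (0.669). Only DML1 was apart from its neighbour, and each of the others overlapped the next in the order. In D, DRM7 (12.1) was at the level of DML1 (12.1), and their libraries overlapped. CMT2 (1.82) stood 6th in D, apart from DRM5 (3.31) above it and from CMT4 (1.49) below it. DRM7 held rank 5 in C, 4 in US, 1 under D and 3 under US + D.

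Within the summed level of the 6 methyltransferases per kb of span, DRM7 made up 26.6 ± 10.1% in C, 25.5 ± 12.6% in US, 58.5 ± 6.95% under D and 28.0 ± 12.1% under US + D (SD, n = 3). Its share ranged from 50.8% to 64.1% in the D libraries and reached at most 39.1% in the others. CMT2 made up 25.6 ± 4.18%, 24.0 ± 10.2%, 9.02 ± 1.06% and 22.8 ± 4.14% in the same order, and its highest share in D, 10.2%, was below its lowest elsewhere, 17.3%. The share of MET1 was 6.89 ± 1.63% in D and between 13.1% and 13.5% on average in the other groups. The shares of a library add up to the whole, so a larger share of DRM7 lowers all others. DRM5 (16.5% in D, 20.8% to 25.2% elsewhere) and CMT4 (7.46% in D, 9.96% to 10.4% elsewhere) also had their lowest mean shares in D. The lower shares of CMT2 and MET1 in D are thus not separate from the higher share of DRM7. The summed level of the methyltransferases was 16.7 ± 2.73 CPM per kb in C, 14.8 ± 2.46 in US, 20.4 ± 2.66 under D and 16.1 ± 1.73 under US + D. That of the demethylases was 21.6 ± 4.07, 21.3 ± 6.66, 21.1 ± 1.94 and 22.9 ± 3.20. The ratio of demethylase to methyltransferase level was 1.29 ± 0.148 in C, 1.42 ± 0.231 in US, 1.05 ± 0.250 under D and 1.42 ± 0.116 under US + D. The lower ratio in D rested on DRM7, the gene with the shortest span, and on the scaling by span. Without DRM7, the other 5 methyltransferases summed to 12.4 ± 3.73 CPM per kb in C and 8.34 ± 0.288 in D, and the ratio was 1.78 ± 0.253 in C and 2.52 ± 0.181 in D. In CPM not scaled by span, the 6 genes summed to 159.5 ± 33.9 in C and 155.0 ± 9.04 in D, with ratios of 1.35 ± 0.143 and 1.35 ± 0.208.

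**Figure D3:**
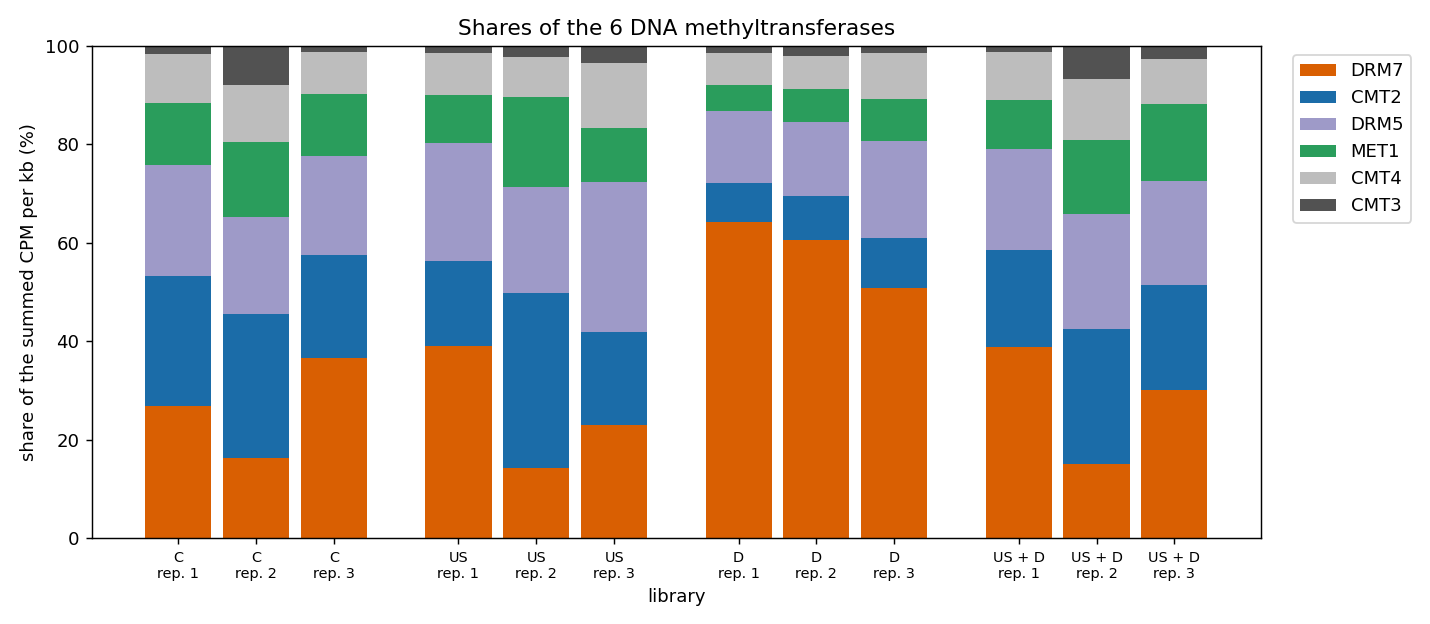
Share of each of the 6 methyltransferases in their summed level in CPM per kb of gene span, in percent, 1 stacked bar per library, grouped by treatment. DRM7 takes 50.8% to 64.1% of the bars of D and at most 39.1% of the others, and CMT2 takes 8.06% to 10.2% of those of D and at least 17.3% elsewhere.

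The methyltransferases also differed between replicates of the same group. In C, US and US + D, the library with the most CMT2 was also the one with the most MET1 and the least DRM7, and in all 3 groups this was the library numbered 2. In D the highest CMT2 was in replicate 2, and the highest MET1 and lowest DRM7 in replicate 3. In US, for example, replicate 2 had 37.4 CPM of CMT2 and 9.66 of DRM7, while replicate 1 had 20.0 and 29.3. The labels do not say that a replicate number marks a shared batch.

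**Figure D4:**
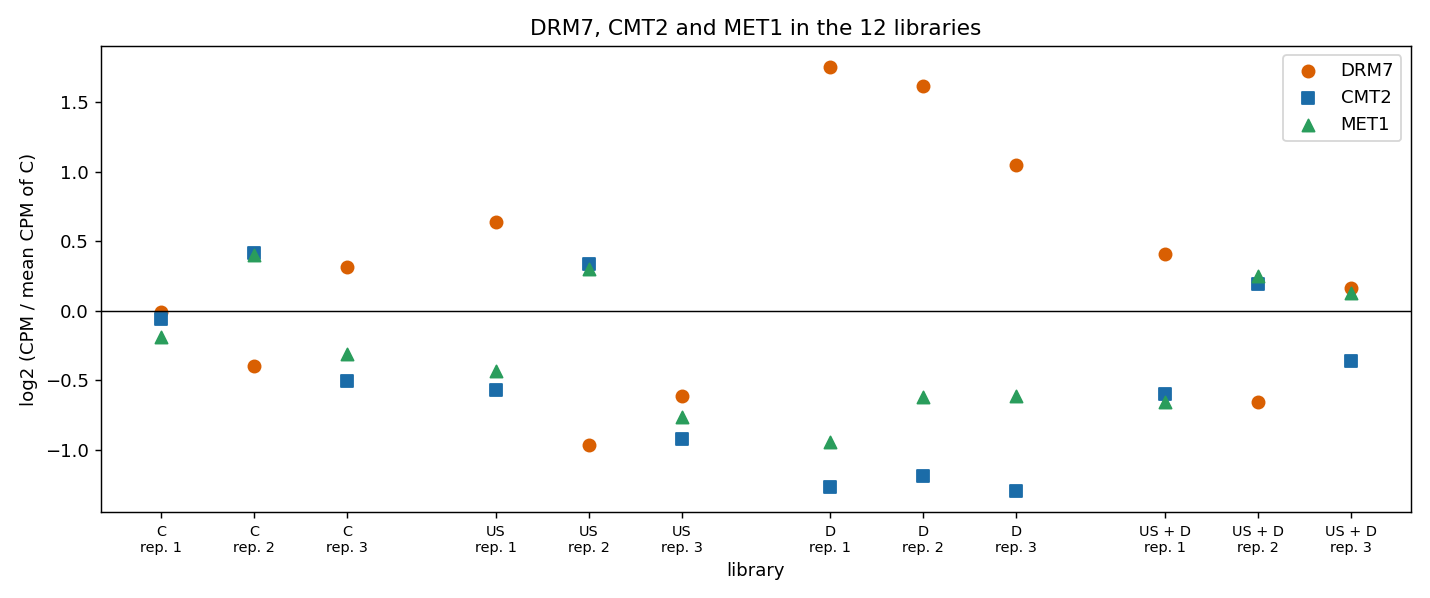
Level of DRM7 (circles), CMT2 (squares) and MET1 (triangles) in each of the 12 libraries, as the log2 ratio of its CPM to the mean CPM of C, with a line at 0 for that mean. In D all DRM7 points lie above the line and all CMT2 and MET1 points below it, and in C, US and US + D the library numbered 2 has the least DRM7 and the most CMT2 and MET1 of its group.

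The 2 loci below, linked by name to DNA replication, were also lowest in D. The locus annotated by the study as the catalytic subunit of DNA polymerase epsilon (Solyc11g067140), a polymerase of the leading strand, was picked by the study from these libraries and was taken up here after its values had been seen. It was measured at 8.99, 9.87 and 8.83 CPM in C, at 6.72, 9.71 and 5.51 CPM in US, at 4.75, 5.30 and 5.06 CPM in D, and at 8.86, 11.6 and 10.3 CPM in US + D. The D libraries were thus the lowest, as for CMT2, and replicate 2 was the highest in each group. Its log2 fold change was -0.87 for D compared to C (SE 0.22, edgeR adjusted p = 0.258) and 1.03 for US + D compared to D (SE 0.22, adjusted p = 0.104). DESeq2 called it in both comparisons (adjusted p = 0.0146 and 0.00102) and for the interaction (0.0112), and limma in both (0.0468 and 0.00367). A Twinkle-like locus (Solyc02g022830), named after a helicase of organelle DNA and taken up in the same way, was measured at 17.3, 18.5 and 17.1 CPM in C and 12.5, 17.1 and 12 CPM in US. It had 11.2, 8.02 and 9.64 CPM in D and 14.9, 15.2 and 13.9 CPM in US + D, so D was again the lowest group. Within D, however, replicate 2 was its lowest library, unlike for the polymerase. For D compared to C its log2 fold change was -0.87 in edgeR (SE 0.18, adjusted p = 0.233), and both DESeq2 (adjusted p = 0.00124) and limma (0.0396) called it. Because both loci were picked from these libraries with their values known, their calls are not a separate test of a lower level in D. In bulk leaf RNA, fewer dividing cells and less of such an RNA per cell cannot be told apart, and the part of cell division in the levels of MET1 and CMT2 was not tested.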

How the data were processed

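RNA sequencing reads of the 12 leaf libraries were trimmed with fastp 0.26.0, aligned with Hisat2 2.1.1 and counted per gene with FeatureCounts 2.1.1, per the submitters' processing notes and the methods of the study. The authors deposited 1 table of raw counts per gene with positions and a length, which equals end minus start plus 1 in every row. Strand setting and the treatment of multi-mapping reads are not given in the sources used here, so reads of near-identical paralogs could be split. Here the counts were tested as deposited with edgeR 4.0.16 in R 4.3.3 (filterByExpr by group, TMM factors of 0.874 to 1.10, 1 quasi-likelihood fit over the 4 groups, 7 comparisons, adjusted over 22157 genes). DESeq2 1.42.0 and limma 3.58.1 were alternatives, as were other scalings, filters and sets of libraries, and the code was tested on simulated data. CPM use the TMM library sizes. The 10 members and all lists were chosen with earlier results of these data known. By rule all 10 members are named. Lists of silencing, repair, methyl donor and replication partners and of tissue markers were planned by description and could not be formed, because the locus numbers carried no descriptions here. Replicates of a group differed by more than sampling noise (chi-square per degree of freedom of 47.6 to 886). No sequences are printed, since none were used here.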

Additional observations from a re-analysis of the deposited data

How the results depend on the processing

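Of 70 fold changes of the members, 2440 values were computed under the alternatives, and 222 of them had the other sign. Apart from CMT3, no fold change beyond 0.32 on the log2 scale had such a value. With C replicates 2 and 3, the deep ones, both left out (chosen after seeing the data), CMT3 was 0.28 for US compared to C and 0.29 for D compared to C, and DML4 0.028 for D compared to C. With 1 library left out, CMT3 ranged in edgeR from -1.47 to 0.58 for US compared to C, from -1.44 to 0.59 for D compared to C and from -0.15 to 1.29 for US + D compared to D, and in DESeq2 the lowest and highest values were -1.48 and 0.56, -1.44 and 0.60, and -0.15 and 1.28. The number of members called was 2, 1 and 1 with DESeq2 for D compared to C, D compared to US and US + D compared to D, and 1 and 2 with limma voom for D compared to C and US + D compared to D. With 1 library left out in edgeR or DESeq2 it ranged from 0 to 2 for D compared to C, 0 to 1 for D compared to US, 0 to 2 for US + D compared to D and 0 to 1 for the interaction, and every call came from DESeq2. Another scaling, no filter, a stricter filter, adjusted p alone, robust fitting and fitting only the groups compared gave 0 members. Deviations from the group means were compared between libraries over the 2000 most variable genes. They correlated above 0.1 in 9 of 18 pairs of libraries with the same replicate number (-0.488 to 0.791, median 0.0996). They did so in 14 of 36 pairs with different numbers (median 0.000106). For 7 of 12 libraries the best match in another group had their own number. Some such matches arise without a shared batch, and their expected number was not worked out. The median was thus higher for the same number, and whether a number marks a shared batch was not tested. The main fit did not pair the libraries. With the replicate number as a block 0 members were called, DRM7 for D compared to C being 1.51 (edgeR adjusted p = 0.244) and CMT2 -1.18 (0.209). The planned use of coding length was not run. Precision is limited by the 3 libraries of a group and not by counting error.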

Other observations

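One gene of the pathway that guides DRM enzymes to DNA was matched, through the study's own annotation, to the table: a CLASSY 4-like locus (Solyc01g058705), whose Arabidopsis relatives help recruit the polymerase that makes the precursors of silencing RNAs. It was chosen after its values had been seen. Its counts were 2757, 4631 and 21 in C, 0, 0 and 0 in US, 0, 0 and 2 in D, and 0, 669 and 3545 in US + D. It was thus between 0 and 21 counts in some libraries and at 669 or more in others of C and US + D.

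Spread between replicates differed among the members: the estimated dispersion of CMT3 was at the 90.0th percentile of all genes tested and that of DRM5 at the 7.88th.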
